A study of Chlamydomonas reinhardtii with 8 samples.

Results

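LHCA1 to LHCA9 encode the light-harvesting antenna proteins of photosystem I in the single-celled green alga Chlamydomonas reinhardtii. All 9 genes were taken by their locus IDs from the table of read counts per gene, which holds 17693 rows, and all 9 passed the filter on low counts, as did 15263 genes in all. The loci were LHCA1 Cre06.g283050_4532.v6.1, LHCA2 Cre12.g508750_4532.v6.1, LHCA3 Cre11.g467573_4532.v6.1, LHCA4 Cre10.g452050_4532.v6.1, LHCA5 Cre10.g425900_4532.v6.1, LHCA6 Cre06.g278213_4532.v6.1, LHCA7 Cre16.g687900_4532.v6.1, LHCA8 Cre06.g272650_4532.v6.1 and LHCA9 Cre07.g344950_4532.v6.1; they are given below by symbol. The symbols are those in common use for these loci.

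RNA of vegetative cells, grown in the light in a liquid medium that holds acetate, was sequenced in 8 libraries. The 4 groups of 2 biological replicates were WT mt+, WT mt-, dnmt1 mt+ and dnmt1 mt-, where mt+ and mt- are the mating types of this haploid alga and dnmt1 marks a DNMT1 knockout. DNMT1 is a DNA methyltransferase. The mt+ libraries came from CC-5155 strains and the mt- libraries from CC-5325 strains, so mating type and strain cannot be told apart, and the labels give neither the lesion of the dnmt1 strains nor the number of clones. The locus listed for the methyltransferase, DMT1 (Cre10.g461750), had 28.2 and 28.3 CPM in WT mt+ against 16.0 and 13.2 in dnmt1 mt+, and 28.7 and 24.5 in WT mt- against 84.0 and 91.0 in dnmt1 mt-. It was lower than in WT in the libraries labelled dnmt1 mt+ and higher in those labelled dnmt1 mt-. With the lesion unknown, these counts cannot check the label. Here dnmt1 is therefore the label of a library, and each genotype direction rests on it; reads over the gene say nothing of its protein. Library totals ran from 12204374 to 21115955 counts.

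Photosystem I uses light to move electrons from plastocyanin or cytochrome c6 to ferredoxin. Its LHCA proteins bind chlorophyll and carotenoids, sit around the core complex and pass excitation energy to it. In this alga they form an inner belt of LHCA1, LHCA8, LHCA7 and LHCA3, an outer belt of LHCA1, LHCA4, LHCA6 and LHCA5, and a side pair of LHCA2 and LHCA9 at the opposite face. LHCA1 is in both belts. All are nuclear genes whose products are imported into the chloroplast.

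A level is given in CPM, a gene's count divided by its library's total in megacounts and by a TMM factor, which corrects for differences in RNA composition. In what follows it is a mean ± SD with n = 2 or the value of a single library. It is relative to all RNA counted, so fewer antenna transcripts per cell and more of other RNA cannot be told apart. Single-library counts of a member ran from 11530 to 72558. Together the 9 genes took 1.51% and 1.49% of all counts in WT mt+ against 1.52% and 1.52% in dnmt1 mt+, and 1.34% and 1.41% in WT mt- against 1.55% and 1.53% in dnmt1 mt-. Both WT mt- libraries thus lay below the other 6 before any scaling factor was applied. All 9 genes had means above 500 CPM, as 312 tested genes did. The SD of their log2 CPM over the 8 libraries lay between 0.09 and 0.19, while its median was 0.15 over those 312 genes and 0.24 over all tested genes. Levels were not compared between genes, because transcript lengths were not used here.

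In the inner belt, LHCA1 had 3780.1 and 3693 CPM in WT mt+ against 4219 and 4362 in dnmt1 mt+, and 3218 and 3748 in WT mt- against 4190.1 and 4259.8 in dnmt1 mt-. The dnmt1 libraries of both mating types lay above all 4 WT libraries. LHCA8 had 1701 and 1514 CPM in WT mt+ against 1694 and 1681 in dnmt1 mt+, and 1339.8 and 1504 in WT mt- against 1728 and 1670.4 in dnmt1 mt-, with WT mt- again the lowest group. LHCA7 had 2712 and 2795 CPM in WT mt+ against 2733 and 2866 in dnmt1 mt+, and 2494 and 2737 in WT mt- against 3020.2 and 3067 in dnmt1 mt-. It varied least of the 9, with an SD of log2 CPM over the 8 libraries of 0.09. LHCA3, whose protein is known to be processed under iron deficiency, had 1062 and 797 CPM in WT mt+ against 841 and 798 in dnmt1 mt+, and 719.8 and 803 in WT mt- against 972 and 946 in dnmt1 mt-. It varied most, with an SD of 0.19, and its WT mt+ replicates stood 0.41 apart on the log2 scale.

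In the outer belt, LHCA4 had 1021 and 935 CPM in WT mt+ against 906 and 915 in dnmt1 mt+, and 754 and 790.3 in WT mt- against 916 and 893 in dnmt1 mt-. Both WT mt- libraries lay below all others and both WT mt+ libraries above all others. LHCA5 had 1594 and 1316 CPM in WT mt+ against 1377 and 1391 in dnmt1 mt+, and 1111 and 1206 in WT mt- against 1442 and 1395 in dnmt1 mt-, and LHCA6 had 1131 and 1124 CPM in WT mt+ against 1129 and 1139 in dnmt1 mt+, and 902 and 1017 in WT mt- against 1119.8 and 1117 in dnmt1 mt-. For both genes the WT mt- libraries were the lowest of the 8, and LHCA6 was nearly level over the other 6 libraries. Of the side pair, LHCA2 had 1645 and 1473 CPM in WT mt+ against 1385 and 1377 in dnmt1 mt+, and 1260.3 and 1327 in WT mt- against 1504 and 1522 in dnmt1 mt-. LHCA9 had 979 and 751 CPM in WT mt+ against 885 and 864 in dnmt1 mt+, and 724 and 815 in WT mt- against 966 and 951 in dnmt1 mt-. LHCA9 in WT mt+ replicate 2 was as low as in WT mt-, so these groups overlapped, while the WT mt- libraries of LHCA2 were the lowest of the 8.

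The order of the group means had one fixed point: WT mt- was the lowest group for all 9 genes, and WT mt- replicate 1 was the lowest library for all 9. The highest group was dnmt1 mt- for LHCA3, LHCA7, LHCA8 and LHCA9, WT mt+ for LHCA2, LHCA4 and LHCA5, and dnmt1 mt+ for LHCA1 and LHCA6. The lowest group overlapped with the next one for LHCA1, LHCA3, LHCA7 and LHCA9. The top pair of groups overlapped for LHCA1, LHCA2, LHCA3, LHCA5, LHCA6 and LHCA8, and only for LHCA4, LHCA7 and LHCA9 did the highest group stand clear of the next. For LHCA9, however, WT mt+ replicate 1 (979 CPM) lay above both dnmt1 mt- libraries (966 and 951 CPM). Only for LHCA4 and LHCA7 was the highest group clear of all others. The share of all tested genes with such an order or such overlaps of the 4 groups is not given here. The order, with WT mt- lowest, is therefore not shown to be particular to the antenna genes. WT mt- replicate 1 was also the deepest library and had the highest TMM factor (1.07, against 0.965 to 1.03 in the others), and the part of depth in its low levels was not tested.

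**Figure D1:**
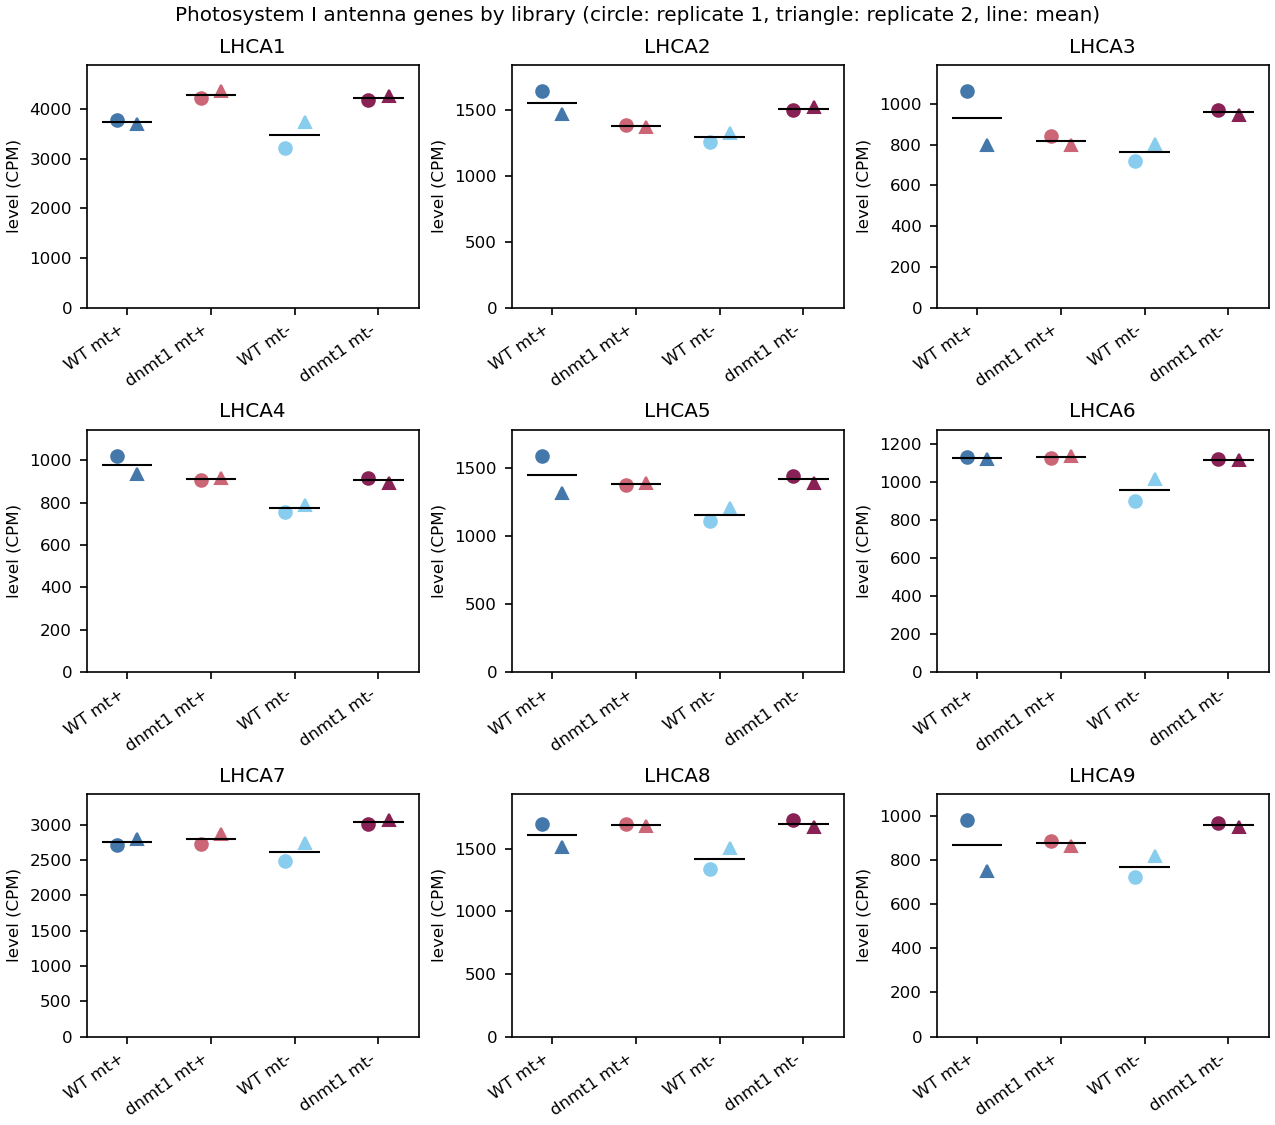
Level of each photosystem I antenna gene in CPM (vertical axes, from 0) in the 4 groups; circles are replicate 1, triangles replicate 2 and lines group means. WT mt- has the lowest mean in all 9 panels, and LHCA3 shows the widest gap between WT mt+ replicates (1062 and 797 CPM).

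The first comparison asked whether antenna transcripts differed between dnmt1 and WT in mt-. The means of all 9 genes were higher in dnmt1 mt- by 1.16 to 1.26-fold, and 6 of 9 genes rose: LHCA1, LHCA3, LHCA4, LHCA5, LHCA8 and LHCA9. Calls were made with edgeR's quasi-likelihood test, where the p-value, adjusted by Benjamini-Hochberg over all 15263 tested genes, was under 0.05, and 11.9% of all tested genes were called higher in this comparison. The median log2 fold change of the 9 genes was 0.26, against 0.01 over all tested genes. Both dnmt1 mt- libraries lay above both WT mt- libraries for all 9 genes, as they did for 34.2% of all tested genes.

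Among the called genes, LHCA3 went from 762 ± 59.1 to 959 ± 18.5 CPM, a log2 fold change (± standard error) of 0.33 ± 0.11 (edgeR adjusted p = 0.0408). LHCA9 went from 769.7 ± 64.7 to 958 ± 10.7 CPM, a log2 fold change of 0.32 ± 0.11 (edgeR adjusted p = 0.0428). For LHCA1, the antenna protein of both belts, the values were 3483 ± 375 and 4225 ± 49.2 CPM and a log2 fold change of 0.28 ± 0.09, with the smallest adjusted p of the 9 (edgeR adjusted p = 0.0328). LHCA5 (log2 fold change 0.29 ± 0.09), LHCA8 (0.26 ± 0.09) and LHCA4 (0.23 ± 0.08) had adjusted p-values of 0.0342, 0.0455 and 0.0497 by the same test. LHCA2, LHCA6 and LHCA7 missed the threshold, with log2 fold changes of 0.23 ± 0.08, 0.22 ± 0.08 and 0.22 ± 0.08 and adjusted p-values of 0.0586, 0.0614 and 0.0676. Their 95% intervals (0.05 to 0.40, 0.05 to 0.40 and 0.04 to 0.39) overlap those of the called genes. The median log2 fold change was 0.27 in the inner belt, 0.25 in the outer belt and 0.27 in the side pair, with LHCA1 counted in both belts.

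The calls in mt- lay close to the threshold and moved with single libraries. All 9 fold changes kept their sign under all 15 alternative settings, between 0.13 and 0.41 on the log2 scale. The libraries of the 2 groups did not overlap for any of the 9. Leaving 1 library out could thus not by itself turn a sign, and those settings were no test of the direction. None of the 9 was called without WT mt- replicate 1, without either library of dnmt1 mt-, or without either library of dnmt1 mt+, which lends only its spread to this test, and 4 were called without WT mt- replicate 2. All 9 were called without either library of WT mt+ and in a fit to the 2 compared groups alone. Each such refit estimates the spread of every gene anew, and the share of all tested genes called in it is not given here. The change in these counts is therefore not shown to be particular to the antenna genes. DESeq2 gave 5 calls and lost that of LHCA4. Size factors by relative log expression (RLE) gave 2 calls, LHCA1 and LHCA5, and scaling by library size gave 3, LHCA1, LHCA3 and LHCA5. That last scaling moved the median of all tested genes from 0.01 to -0.09 and that of the 9 genes from 0.26 to 0.16, and the share of higher genes among all calls from 50.6% to 33.1%.

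**Figure D2:**
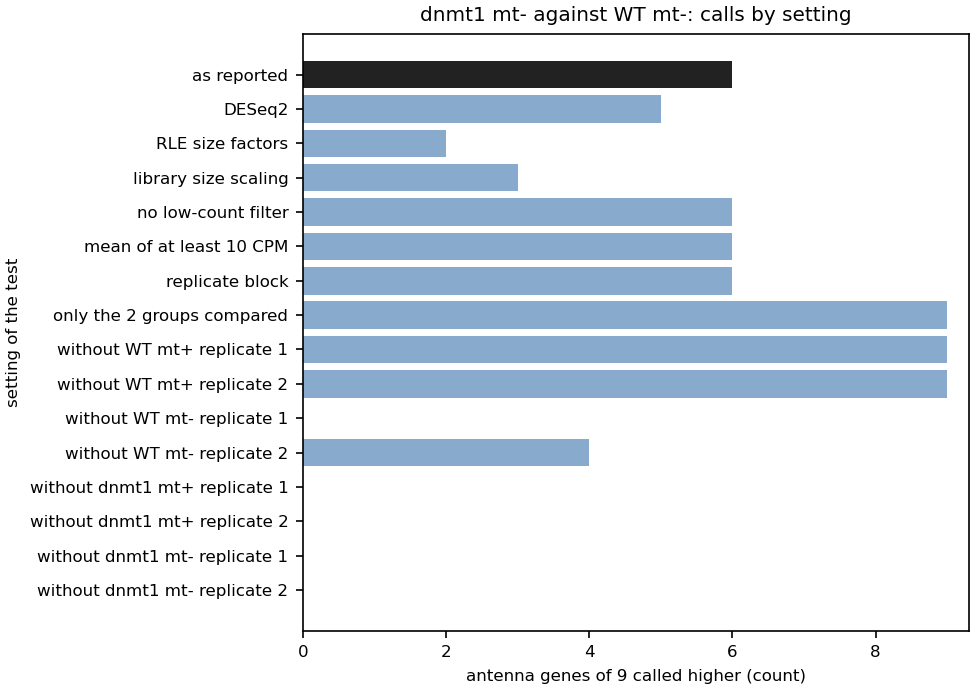
Number of the 9 antenna genes called higher in dnmt1 mt- than in WT mt- (horizontal axis, count, from 0) under each setting of the test (vertical axis); the black bar is the reported test with 6 calls. The count runs from 0 to 9 with the library left out.

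The same question in mt+ gave no called antenna gene. edgeR called 0 of 9, as did DESeq2, and 1 of 9 (LHCA1) had an unadjusted p under 0.05, while 9.27% of all tested genes were called higher and 8.83% lower in this comparison. The median log2 fold change of the 9 was 0.01 (all tested genes, -0.0017). LHCA1 went from 3737 ± 61.4 to 4290.4 ± 101 CPM, a log2 fold change of 0.20 ± 0.09 (edgeR adjusted p = 0.139), with both dnmt1 libraries above both WT libraries. LHCA2 went from 1559 ± 122 to 1381 ± 6.30 CPM, a log2 fold change of -0.18 ± 0.08 (edgeR adjusted p = 0.163), and both of its dnmt1 libraries lay below both WT libraries. LHCA4 was likewise lower without overlap (-0.10 ± 0.08). Of all tested genes, 27.8% were higher and 26.5% lower without overlap, against 1 and 2 of these 9. LHCA3 (-0.18 ± 0.11), LHCA5 (-0.07 ± 0.09), LHCA6 (0.01 ± 0.08), LHCA7 (0.02 ± 0.08), LHCA8 (0.07 ± 0.09) and LHCA9 (0.02 ± 0.11) had overlapping groups. The 95% intervals of the 9 reached at most 0.39 upwards and -0.42 downwards.

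For some genes the WT mt+ replicates stood far apart, and the calls in mt+ turned on which of them was used. Replicate 1 was above replicate 2 by 0.41 for LHCA3, 0.38 for LHCA9 and 0.28 for LHCA5 on the log2 scale, and by 0.01 for LHCA6. The median absolute gap over the 9 genes was 0.16 in WT mt+ and 0.16 in WT mt-, against 0.014 in dnmt1 mt+ and 0.024 in dnmt1 mt-. Without WT mt+ replicate 1, LHCA1 and LHCA9 were called higher in dnmt1 mt+ (log2 fold changes 0.22 and 0.23). Without WT mt+ replicate 2, LHCA2, LHCA3 and LHCA5 were called lower (-0.25, -0.37 and -0.20). Scaling by library size called LHCA1 higher and LHCA2 lower.

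**Figure D3:**
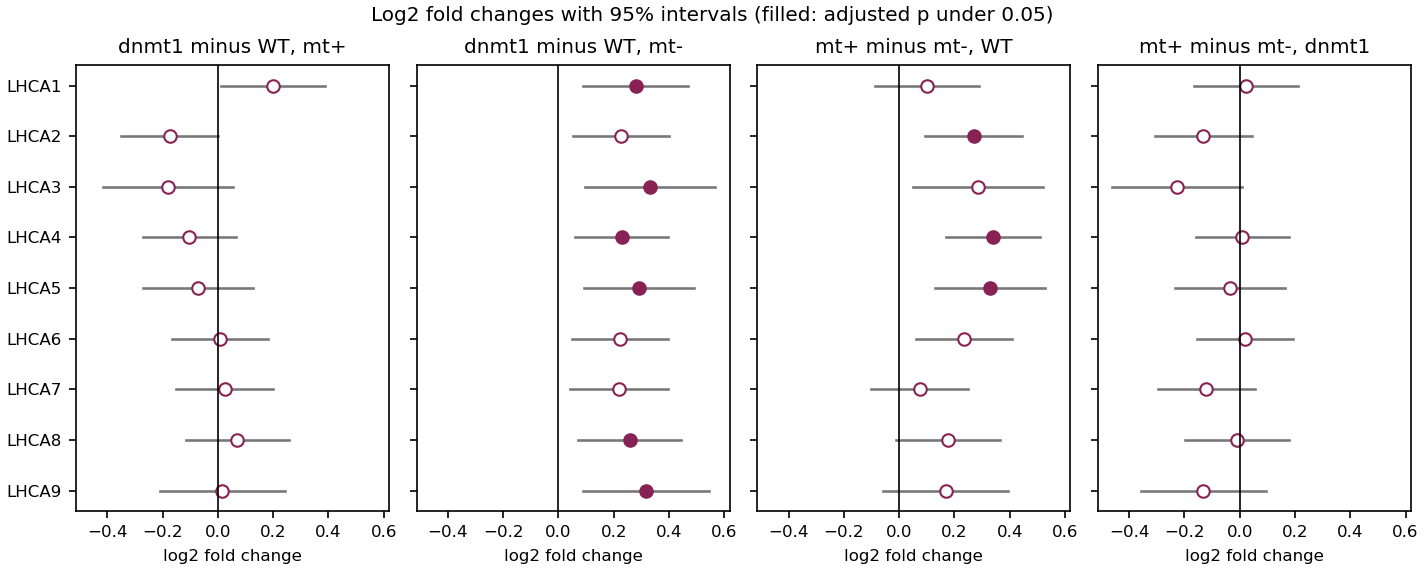
Log2 fold change of each antenna gene (horizontal axes; points, with 95% intervals as lines) in 4 comparisons; filled points have an adjusted p under 0.05. The 9 points of dnmt1 minus WT in mt- lie between 0.22 and 0.33, and those in mt+ lie on both sides of 0.

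Whether the difference between dnmt1 and WT was itself unlike in mt+ and mt- was tested as the difference of the log2 fold changes, mt+ minus mt-. It was negative for all 9 genes, with a median of -0.30 (all tested genes, -0.02), and 2 of 9 were called, where 7.00% of all tested genes were called in this direction. LHCA2, of the side pair, had a difference of -0.40 ± 0.12 (edgeR adjusted p = 0.0317), made of -0.18 ± 0.08 in mt+ and 0.23 ± 0.08 in mt-. LHCA3, of the inner belt, had -0.51 ± 0.16 (edgeR adjusted p = 0.0400), made of -0.18 ± 0.11 and 0.33 ± 0.11. LHCA4 and LHCA5, both of the outer belt, had -0.33 ± 0.11 and -0.36 ± 0.13 and were not called (adjusted p-values 0.0643 and 0.0842 by the same test). For LHCA1 the difference was -0.08 ± 0.13 (95% interval -0.35 to 0.19). The calls of LHCA2 and LHCA3 were lost without WT mt- replicate 1 (log2 differences -0.36 and -0.43), and with any 1 library of dnmt1 mt+ or dnmt1 mt- left out (-0.38 and -0.52 without dnmt1 mt+ replicate 1); that of LHCA3 also without WT mt- replicate 2 (-0.59) and with a 10 CPM minimum (-0.45). The size for LHCA3 moved with the WT mt+ replicates, to -0.28 without replicate 1 and -0.71 without replicate 2, still called in both cases. Without WT mt+ replicate 2 the count of called genes was 6, and without replicate 1 it was 3.

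Averaged over both mating types, LHCA1 was the one antenna gene called, with a mean log2 fold change of 0.24 ± 0.06 (edgeR adjusted p = 0.0107; called higher in 12.9% of all tested genes). It was higher in 2 of 2 dnmt1 libraries than in either WT library of its mating type, in mt+ and in mt-. LHCA8 and LHCA9 had means of 0.16 ± 0.06 and 0.17 ± 0.08 (adjusted p-values 0.0652 and 0.121 by the same test), and LHCA2 had 0.03 ± 0.06. The call of LHCA1 was lost without dnmt1 mt+ replicate 2 and without either library of dnmt1 mt- (means 0.23, 0.25 and 0.23). Without WT mt+ replicate 1 the number of called genes was 6, without WT mt+ replicate 2 it was 3, and without WT mt- replicate 2 it was 2.

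The comparison of mt+ with mt- in WT shares the WT libraries with the genotype comparisons above. All 9 genes had higher means in WT mt+, with a median log2 fold change of 0.23 (all tested genes, 0.02), and 3 of 9 rose: LHCA4, LHCA5 and LHCA2, where 10.6% of all tested genes were called higher. LHCA4 was at 978 ± 60.6 CPM in WT mt+ and 772 ± 25.6 in WT mt-, a log2 fold change of 0.34 ± 0.08 (edgeR adjusted p = 0.00689). LHCA5 and LHCA2 had 0.33 ± 0.09 and 0.27 ± 0.08 (adjusted p-values 0.0211 and 0.0295 by the same test). The WT groups did not overlap for 5 of 9 genes (LHCA2, LHCA4, LHCA5, LHCA6 and LHCA8), nor, in this direction, for 29.4% of all tested genes. LHCA1 and LHCA7, the least different, had 0.10 ± 0.09 and 0.07 ± 0.08. In a fit to these 2 groups alone, and without WT mt- replicate 1 (log2 fold changes 0.31, 0.27 and 0.23 for LHCA4, LHCA5 and LHCA2), none was called. When WT mt+ replicate 1 was left out, the calls of LHCA5 (0.18) and LHCA2 (0.19) were lost, LHCA4 kept its call and LHCA6 gained one (0.23). LHCA2 was also not called without WT mt- replicate 2 (0.31) or with any 1 dnmt1 library left out (0.26 to 0.27), and LHCA5 not without dnmt1 mt- replicate 1 (0.31). There were 7 calls without WT mt+ replicate 2.

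Between dnmt1 mt+ and dnmt1 mt- no antenna gene was called by edgeR or DESeq2, and none had an unadjusted p under 0.05, where 10.7% of all tested genes were called higher and 11.4% lower. The log2 fold changes, mt+ over mt-, ran from -0.23 ± 0.11 for LHCA3 to 0.02 ± 0.09 for LHCA1, with a median of -0.04. Both dnmt1 mt+ libraries lay below both dnmt1 mt- libraries for LHCA2, LHCA3, LHCA5, LHCA7 and LHCA9, and above them for LHCA6, and 32.5% and 33.0% of all tested genes did so. The replicates of these groups lay close together, and a fit to these 2 groups alone called 4 of the 9 lower in dnmt1 mt+.

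The proportions within the family shifted in both dnmt1 mt+ libraries for LHCA1 and LHCA2 and in WT mt+ replicate 1 for several genes. As a share of all counts of the 9 genes, which needs no scaling factor, LHCA1 took 24.2% and 25.7% in WT mt+ against 27.8% and 28.3% in dnmt1 mt+, and 25.7% and 26.9% in WT mt- against 26.4% and 26.9% in dnmt1 mt-. Both dnmt1 mt+ libraries thus had the highest LHCA1 share. The share of LHCA2 was 10.5% and 10.2% in WT mt+ and 9.13% and 8.94% in dnmt1 mt+, the lowest of the 8 libraries. LHCA8 held between 10.5% and 11.2% in all libraries. WT mt+ replicate 1 had the highest share of LHCA3 (6.8%), LHCA5 (10.2%) and LHCA9 (6.27%), and the lowest of LHCA1 and LHCA7 (17.4%). Measured as the root mean square difference over the 8 libraries between the centred log2 levels of a gene and of the sum of the other 8, LHCA8 was nearest to its family (0.03), followed by LHCA6 (0.05), and LHCA3 was farthest (0.12).

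The summed antenna level followed that of the photosystem I subunits. It was 15012 ± 868 CPM in WT mt+, 15282 ± 157 in dnmt1 mt+, 13236 ± 1008 in WT mt- and 15839 ± 26.7 in dnmt1 mt-, so the mean in dnmt1 mt- was 1.20 times that in WT mt-. For the 9 nuclear genes of photosystem I subunits (PSAD, PSAE, PSAF, PSAG, PSAH, PSAK, PSAL, PSAN and PSAO) the same ratio was 1.18, and for the 11 genes of the photosystem II antenna (LHCBM1 to LHCBM9, LHCB4 and LHCB5) it was 1.19. The ratio of summed photosystem I antenna to summed subunit level ran from 1.08 to 1.13 over the 8 libraries, and that to the photosystem II antenna from 0.829 to 0.872. All 3 sums were lowest in WT mt- replicate 1.

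Of 11348 other genes that averaged 5 CPM or more, the one whose centred log2 level over the 8 libraries came nearest to that of the summed antenna was PSAF (Cre09.g412100), for the subunit that docks plastocyanin, with a root mean square difference of 0.024; the median over all genes compared was 0.23. It was followed by Cre08.g380600 (0.027) and Cre03.g165100 (0.027), which have no symbol here. Of the listed genes, PSAL (rank 12), LHCBM3 (14), PSAD (17) and PSAN (19) came next. Among the nearest 100 genes, 0.881% of those compared, were 8 of 9 photosystem I subunit genes, 5 of 11 photosystem II antenna genes and none of the 11 genes listed as electron partners or for antenna assembly. Of these 11, PETF, for ferredoxin, lay just past that cut, at rank 116 (0.075), and the others at rank 337 or beyond. The exception among the subunits was PSAE, at rank 1698, and LHCBM9 was at rank 11294. The gene at rank 100 had a difference of 0.072, and of the antenna genes only LHCA8 and LHCA6 came that near to the sum of the other 8. The genes compared reached down to 5 CPM, and a comparison with genes of like level was not made. The measure rests on 8 libraries that fall into 4 groups, and with the 4 group means in its place the nearest 100 held 6 listed genes in all, not 13.

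**Figure D4:**
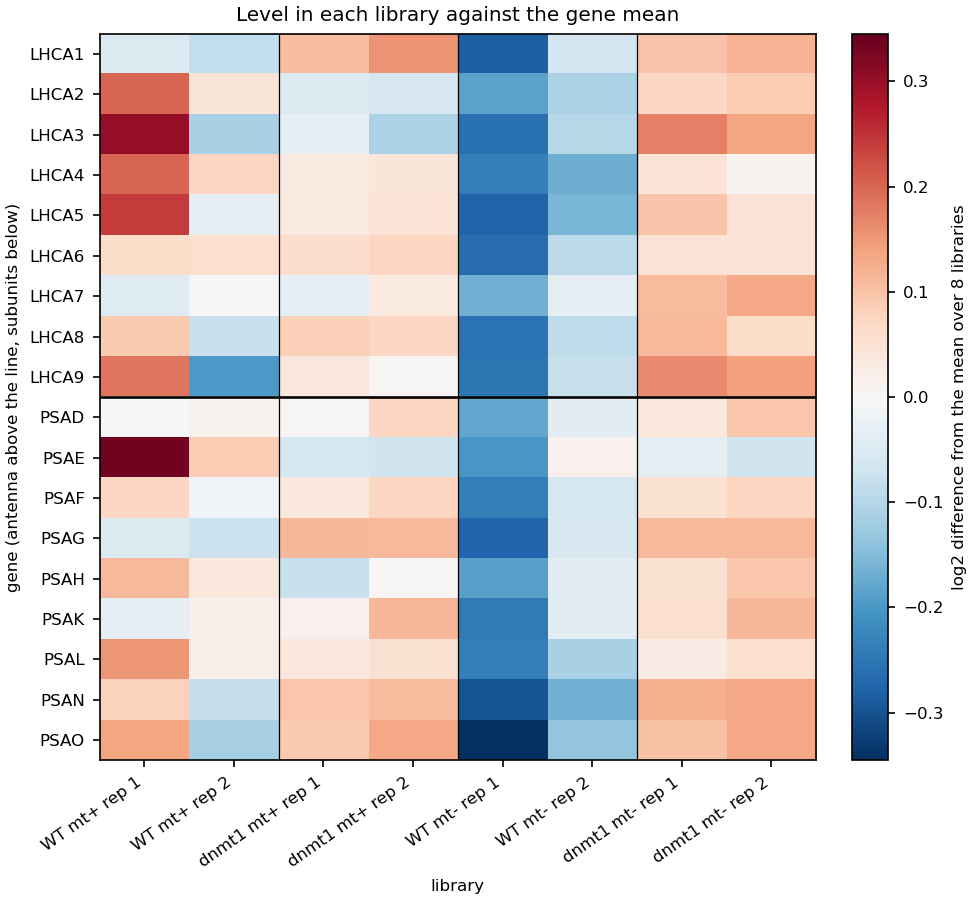
Log2 difference of each gene in each library (columns) from its mean over the 8 libraries (colour scale), for the antenna genes (above the line) and the photosystem I subunit genes (below). The column of WT mt- replicate 1 is the lowest for all 9 antenna genes, and WT mt+ replicate 1 is high for LHCA3, LHCA5, LHCA9 and PSAE.

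The comparison of dnmt1 mt- with WT mt- called 1820 of all 15263 tested genes higher and 1774 lower. In it 3 of 9 subunit genes rose and 6 were not called, with a median log2 fold change of 0.22. Those that rose were PSAN (0.36 ± 0.08), PSAO (0.35 ± 0.10) and PSAG (0.27 ± 0.09), for subunits at the edge of the core (edgeR adjusted p = 0.00634, 0.0154 and 0.0301). None of the 9 was called when WT mt- replicate 1 or a dnmt1 mt- library was left out, and 8 were without either library of WT mt+. PSAG was also not called without either dnmt1 mt+ library (0.27 and 0.27) or with library size scaling (0.18), and 5 subunit genes were called without WT mt- replicate 2 and 7 in the 2 groups alone. Of 11 photosystem II antenna genes, 5 rose and 3 fell, with a median of 0.19; the 4 with the smallest p were LHCBM8 (-0.96 ± 0.13), LHCBM4 (-0.70 ± 0.11), LHCB5 (0.39 ± 0.08) and LHCB4 (0.51 ± 0.11). LHCBM4 and LHCBM8 belong to a group of near-identical genes, so the split of reads between them is uncertain. LHCB4 lost its call without replicate 1 of WT mt- (0.44) or of dnmt1 mt- (0.46), and the 8 calls came to 3 when replicate 1 of either mt- group was left out and to 4 when dnmt1 mt- replicate 2 was.

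Among 6 electron partners of photosystem I, 2 rose and 2 fell in the same comparison, where 1820 of all 15263 tested genes were called higher and 1774 lower. CYC6 (Cre16.g651050), for cytochrome c6, the copper-free substitute for plastocyanin, had a log2 fold change of 1.51 ± 0.17 from a low level (6.57 ± 1.01 CPM in WT mt-), and PETF (Cre14.g626700), for ferredoxin, had 0.32 ± 0.09. PGR5 (Cre05.g242400) and PGRL1 (Cre07.g340200), both of cyclic electron flow around photosystem I, fell, PGR5 from 179.8 ± 10.2 to 69.7 ± 3.87 CPM (log2 fold change -1.37 ± 0.11; edgeR adjusted p = 6.85e-07) and PGRL1 with a log2 fold change of -0.40 ± 0.08. The call of PETF was lost without WT mt- replicate 1 and with any 1 library of dnmt1 mt+ or dnmt1 mt- left out (log2 fold change 0.19 without WT mt- replicate 1), and that of PGRL1 without WT mt- replicate 1 (-0.33). Of 5 genes for antenna assembly and chlorophyll, 3 rose: ALB3.1 (Cre06.g251900), for the thylakoid insertase of antenna proteins, from 10.4 ± 0.571 to 19.5 ± 0.402 CPM (0.91 ± 0.14; edgeR adjusted p = 3.64e-04), and CTH1 (Cre12.g510050; 0.44 ± 0.13) and CRD1 (Cre07.g346050; 0.34 ± 0.09), for the aerobic cyclase of chlorophyll synthesis. The call of CRD1 was lost when any of the 4 libraries of mt- was left out, and that of CTH1 without either library of WT mt- or without dnmt1 mt- replicate 1.

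In mt+, none of the 9 subunit genes was called by edgeR (1 by DESeq2, and 1, PSAE, had an unadjusted p under 0.05), with a median log2 fold change of 0.03. In the same comparison 9.27% of all tested genes were called higher and 8.83% lower. Of the photosystem II antenna LHCBM9 (1.45 ± 0.15) rose, from a low 26.9 ± 8.86 CPM in WT mt+ to 72.2 ± 7.44 in dnmt1 mt+. In mt- it had 107 ± 5.33 CPM in WT and 76.9 ± 0.916 in dnmt1. LHCBM4 (-0.51 ± 0.11) and LHCBM8 (-0.51 ± 0.12) fell in mt+. Both of these lost their calls without dnmt1 mt+ replicate 2 (-0.41 and -0.53). LHCBM8 also lost its call without replicate 1 (-0.46) and in the 2 groups alone (-0.52). Of the electron partners CYC6 (-0.95 ± 0.18) and FNR1 (Cre11.g476750; -0.48 ± 0.10), for ferredoxin-NADP reductase, fell and none rose. Of the assembly genes ALB3.1 (0.53 ± 0.16) and CRD1 (0.38 ± 0.09) rose and CAO (Cre01.g043350; -0.50 ± 0.09), for the enzyme that makes chlorophyll b, fell. The calls of photosystem II antenna genes came to 6 and those of electron partners to 4 without WT mt+ replicate 2, and those of assembly genes to 5 without WT mt+ replicate 1. Library size scaling also called 4 electron partners. DESeq2 did not call ALB3.1 (0.51). The calls of ALB3.1 and CRD1 were lost in a fit to these 2 groups alone (log2 fold changes 0.52 and 0.37). Without dnmt1 mt+ replicate 1 those of ALB3.1, CRD1 and FNR1 were lost (0.46, 0.38 and -0.45), and without replicate 2 that of ALB3.1 (0.62).

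Between WT mt+ and WT mt-, 1615 of all 15263 tested genes were called higher and 1665 lower in mt+. Of 9 subunit genes 2 were called and both were higher in mt+, PSAE (0.30 ± 0.10) and PSAL (0.26 ± 0.08). The median log2 fold change of the 9 was 0.19. Neither was called without WT mt- replicate 1 (0.20 and 0.20) or with any 1 dnmt1 library left out, nor in the 2 groups alone (0.30 and 0.26), PSAE was not without WT mt+ replicate 1 (0.17), and 6 subunit genes were called without WT mt+ replicate 2. Of the photosystem II antenna 4 genes were higher and 1 lower in WT mt+, of the electron partners 3 were higher and 2 lower, and of the assembly genes 2 were higher and none lower. The 5 calls of the photosystem II antenna came to 1 without WT mt- replicate 1 and in the 2 groups alone, to 3 with any 1 dnmt1 library left out and to 9 without WT mt+ replicate 2. The 5 calls of the electron partners came to 3 without WT mt- replicate 1 and in the 2 groups alone. The 2 calls of the assembly genes were CAO and CTH1. Both were lost in the 2 groups alone (0.29 and 0.42) and with any 1 library of WT mt- or dnmt1 left out. Without WT mt+ replicate 1 both were lost as well (0.19 and 0.13). That of CAO alone was lost with DESeq2 (0.28) and with library size scaling (0.24). The difference between mating types in the dnmt1 comparison was negative for all 9 subunit genes, with a median of -0.26, and none was called by edgeR or DESeq2, while 4 had an unadjusted p under 0.05. Of them, 5 were called without WT mt+ replicate 2.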

How the data were processed

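RNA-seq of 8 libraries was compared in 4 groups of 2 biological replicates. The values used are raw read counts per gene, as deposited by the authors. The submitters' processing notes name STAR 2.7.6, Trim Galore 2.6, featureCounts, Picard and DESeq2, without their roles. A second deposited table of normalized counts (a signal on a size-factor scale) equals these counts divided by 1 factor per library and served only for that check. The genome build and strand setting are not given in the sources used here. Counts were filtered with filterByExpr, scaled by TMM and fitted across all genes with 1 mean per group in edgeR 4.0.16 (glmQLFit, glmQLFTest; R 4.3.3), and two-sided p-values were adjusted by Benjamini-Hochberg across the 15263 tested genes, with calls under 0.05. Standard errors were derived from each log2 fold change and its F statistic. Alternatives were DESeq2 1.42.0, RLE factors, library size, no filter, a 10 CPM minimum, a replicate block, the 2 compared groups alone and each library left out. The 9 genes and the other lists were chosen with earlier results of these data known. All 9 genes are named throughout. From each other list at most 4 called genes per comparison are named, those with the smallest p, together with the genes nearest to the summed antenna. Replicates are separate samples per the labels, which do not say whether they came from separate cultures, so p-values measure the spread between these samples. Intervals are 95% and, like the p-values, rest on 2 replicates per group, with 1 spread per gene pooled over the 4 groups. That spread is moderated across all genes, so it is not that of the 2 compared groups alone.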

Additional observations from a re-analysis of the deposited data

Results flagged for a closer look

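LHCA2 and LHCA3 were flagged because their difference between dnmt1 and WT was called unlike in mt+ and mt-, by a direct test of that difference. It was negative for all 9 genes, and LHCA4 (-0.33) and LHCA5 (-0.36) missed the threshold. The test shares the WT libraries, where the log2 fold change of mt+ over mt- was 0.27 for LHCA2 and 0.29 for LHCA3. For LHCA2 the log2 fold change was -0.18 in mt+ and 0.23 in mt-, and the difference was -0.40 (edgeR, Benjamini-Hochberg adjusted p = 0.0317). Its dnmt1 libraries lay below WT in 2 of 2 cases in mt+ and above WT in 2 of 2 cases in mt-. For LHCA3 the log2 fold change was -0.18 in mt+, where the groups overlapped, and 0.33 in mt-, and the difference was -0.51 (edgeR, Benjamini-Hochberg adjusted p = 0.0400). Neither gene was called in mt+, and LHCA2 was not called in mt- either. Both differences fell short of the threshold when WT mt- replicate 1 or any library of dnmt1 was left out, and that of LHCA3 also without WT mt- replicate 2 and with a 10 CPM minimum. The difference for LHCA3 without WT mt+ replicate 1 was -0.28, and its log2 fold change in mt+ was 0.049. Without WT mt+ replicate 2 these were -0.71 and -0.37.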

How the results depend on the processing

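Of the 9 genes, the number called was 0 in mt+, 6 in mt-, 1 for the mean of both, 2 for the difference between mating types, 3 between mating types in WT and 0 in dnmt1. With the replicate number as a block it was 0, 6, 1, 2, 4 and 0. Deviations of same-numbered samples correlated between -0.08 and 0.19, which does not settle whether the replicate numbers pair the samples. Leaving out 1 library moved these counts between 0 and 3, 0 and 9, 0 and 6, 0 and 6, 0 and 7, and 0 and 1. RLE factors gave 2 in mt-, and library size gave 2 in mt+ and 3 in mt-. A minimum of 10 CPM gave 2 for the mean and 1 for the difference. A fit to the 2 groups alone gave 0 in WT and 4 in dnmt1. Nearest genes held 6 listed genes over group means, against 13. The cause was not tested, and the share of all tested genes called under each setting is not given here. No other single choice moved these counts by over 1.5 times. Library size scaling moved the share of higher genes among all calls from 50.2% to 37.3% for the mean, from 49.3% to 64.4% for the difference and from 49.2% to 37.9% in WT.

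The sign turned in 27 instances, in which neither value was called. In mt+, LHCA6 was at -0.0082 with DESeq2 and with RLE factors and at -0.0034 in the 2 groups alone, and LHCA9 at -0.0010 with DESeq2 and -0.00089 with RLE factors. Between mating types in dnmt1, LHCA4 was at -0.0084 with DESeq2 and RLE factors, LHCA8 at 0.024 with library size and 0.061 with 10 CPM, and LHCA5 at 0.035 with 10 CPM. With library size, LHCA2 had a mean of -0.024 and LHCA1 a difference of 0.0071. With 1 library left out, log2 fold changes in mt+ ran from -0.37 to 0.049 for LHCA3, -0.20 to 0.080 for LHCA5, -0.011 to 0.16 for LHCA8 and -0.16 to 0.23 for LHCA9. The mean ran from -0.013 to 0.066 for LHCA2 and -0.021 to 0.19 for LHCA3, and the difference from -0.19 to 0.036 for LHCA1. Between mating types the range was -0.0044 to 0.21 for LHCA1 and -0.036 to 0.35 for LHCA9 in WT, and -0.0077 to 0.045 for LHCA4, -0.059 to 0.0057 for LHCA5 and -0.033 to 0.032 for LHCA8 in dnmt1. All members had 11530 counts or more in each library, and precision is limited by 2 replicates per group.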
